A study of Mus musculus with 7 samples.

Results

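E5 is 1 of 6 mouse epiblast stem cell (EpiSC) lines whose RNA was hybridized to Illumina bead arrays, and it was set against the other 5, OG2.1, OG2.2, E3, T9 and C1a1. The members are the genes in which E5 lay below or above all 5 others by at least 1 on the log2 scale, 97 below and 47 above of 8871 genes that were above background on at least 1 EpiSC array. To these come 192 genes above background in all 5 other lines and on no probe in E5, and 64 genes above background in E5 and on no probe in any other line. A gene was above background where its detection p, taken against the array's negative control beads, was under 0.01. Levels are normalized log2 intensities, and the probe that was brightest over the 6 EpiSC lines stood for its gene.

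Every line was sampled on 1 array, and the embryonic stem cell line R1, also 1 array, is given as a value for reference. How each line was derived, its strain and its culture are not given in the labels. A property of E5 therefore cannot be told apart from its culture or its array, and in a line with fewer cells of a type and less RNA per cell the levels would look alike. E5 had 10642 of 25697 probes above background, the fewest of the 6 lines, against 10907 to 11574 in the other 5, and R1 had 10670.

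EpiSCs are pluripotent cells that resemble the epiblast after implantation and depend on activin and FGF signals. In the embryo, Nodal and Wnt signals in the posterior epiblast turn on the genes of the primitive streak, from which mesoderm and definitive endoderm arise, and the Lefty, Fst and Axin2 products hold those signals in check as feedback inhibitors. Single EpiSC cultures often carry some of these streak transcripts beside the pluripotency genes.

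E5 had the state markers of an EpiSC line. The pluripotency gene Pou5f1 stood at 14.12 in E5, against 12.69 to 13.55 in the other 5 lines and 13.42 in R1. Fgf5, a growth factor gene of the postimplantation epiblast, stood at 9.60 in E5, against 9.74 to 10.80 in the others, and was not above background in R1. The de novo methyltransferase gene Dnmt3b (14.82), Otx2 (11.75) and Sox2 (8.69) were all above background in E5. Of the naive genes, Zfp42 and Klf4 were not above background in E5, whereas Dppa5a (5.73) and Esrrb (6.19) were above it. R1 had 14.64 for Dppa5a and 12.97 for Esrrb. In the other 5 lines Dppa5a had 5.40 to 6.46 and Esrrb 4.60 to 5.64. The E5 level of Dppa5a lay close to 5.70, the lowest level of any probe above background there.

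The markers named for the comparison, Lefty1, Sp5 and Fgf8, were absent from E5. They are members by the rule itself, so their low levels are a description and not a check. Lefty1, a secreted Nodal antagonist, had a level of 5.67 in E5, against 9.81 in OG2.1, 8.40 in OG2.2, 9.77 in E3, 10.52 in T9 and 12.04 in C1a1, with 11.67 in R1. Sp5, a transcription factor gene downstream of Wnt, had 4.79 in E5, against 10.10 in OG2.1, 8.51 in OG2.2, 9.13 in E3, 8.28 in T9 and 9.88 in C1a1. Fgf8, which encodes a growth factor made in the streak, had 4.66 in E5, against 8.82 in OG2.1, 8.14 in OG2.2, 9.38 in E3, 9.27 in T9 and 10.23 in C1a1. None of the 3 was above background in E5, all 3 were above it in the other 5 lines, and R1 had Lefty1 but neither Sp5 (4.72) nor Fgf8 (5.03). Because the E5 values are bounds, Lefty1 was at least 21.2-fold lower, Sp5 at least 11.1-fold and Fgf8 at least 11.05-fold. A lower bound of this kind sets the mean of the other lines against the lowest normalized level of any probe above background on the E5 array.

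The promoter of Sp5 is shown because it carries the core of the site bound by the Wnt effectors TCF and LEF, and that of Axin2, another Wnt feedback gene low in E5, for comparison. Both run from 250 bases before to 50 after the RefSeq start on GRCm38.p6, with the motif CTTTGA, searched on both strands, in capitals. Sp5 lies at chr2:70474673-70474972 and Axin2 at chr11:108920099-108920398, both on the plus strand.
Sp5: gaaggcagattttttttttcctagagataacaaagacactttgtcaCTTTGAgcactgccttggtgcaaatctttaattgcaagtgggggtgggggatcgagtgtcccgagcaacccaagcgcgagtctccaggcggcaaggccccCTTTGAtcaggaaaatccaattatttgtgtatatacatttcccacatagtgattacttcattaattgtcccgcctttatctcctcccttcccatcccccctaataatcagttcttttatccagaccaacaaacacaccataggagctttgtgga
Axin2: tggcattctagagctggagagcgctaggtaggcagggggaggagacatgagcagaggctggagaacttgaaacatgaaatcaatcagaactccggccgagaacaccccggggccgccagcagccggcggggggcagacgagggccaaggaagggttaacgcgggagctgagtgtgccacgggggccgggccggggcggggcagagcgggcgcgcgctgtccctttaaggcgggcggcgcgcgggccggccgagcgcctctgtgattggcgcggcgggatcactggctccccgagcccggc
The Sp5 window held the motif 204 and 104 bases before the start, and the Axin2 window held no match. The motif occurred in 5257 of all 32851 promoters of the table and in 11.4% of the 9360 promoters of tested genes. It occurred in 12 of 94 promoters (12.8%) of genes below all 5 others by at least 1, of which 73 of 97 had an entry, and in 3 of 57 promoters (5.26%) of genes above. The motif was thus about as frequent near the low genes as near tested genes in general, and these are matches of letters, not binding sites.

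E5 stood apart more by low than by high genes. Its 97 genes below all others by at least 1 were 1.09% of genes tested. By the same rule there were 13 in OG2.1 (0.147%), 26 in OG2.2 (0.293%), 22 in E3 (0.248%), 5 in T9 (0.0564%) and 42 in C1a1 (0.473%). Its 47 genes above all others (0.530%) compare with 86 in OG2.1 (0.969%), 51 in OG2.2 (0.575%), 40 in E3 (0.451%), 23 in T9 (0.259%) and 46 in C1a1 (0.519%). With any gap at all, E5 was below the 5 others in 1507 genes (17.0%) and above them in 1745 (19.7%). The median difference between E5 and the mean of the other 5 over all genes was -0.0041. Without background correction, which compresses the differences of dim genes, 19 genes lay below and 10 above by at least 1, and all of them were among the members.

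**Figure D1:**
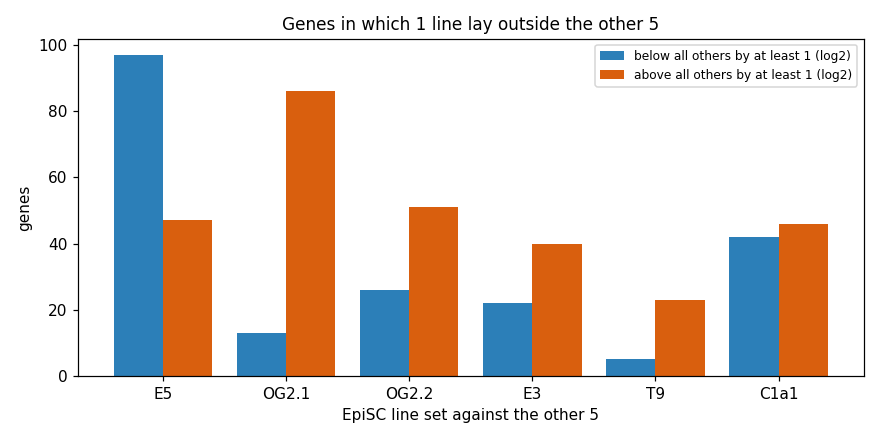
Bars give the number of genes, of 8871 tested, in which 1 EpiSC line lay below (blue) or above (orange) all other 5 by at least 1 on the log2 scale, for E5 on the left and the other lines to its right. E5 has the highest blue bar, 97 genes, and an orange bar of 47 that lies within the range of the other lines.

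No single gene passed a test. Limma, fitted to all 8871 genes with 4 residual degrees of freedom, called 0 genes (0.00%) at an adjusted p under 0.05, with 714 at an unadjusted p under 0.05, 362 of them lower and 352 higher in E5. The smallest adjusted p was 0.164, and an exact permutation test of 1 array against 5 cannot go below 0.167. The text below therefore gives levels and order, and no gene is said to have changed.

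**Figure D2:**
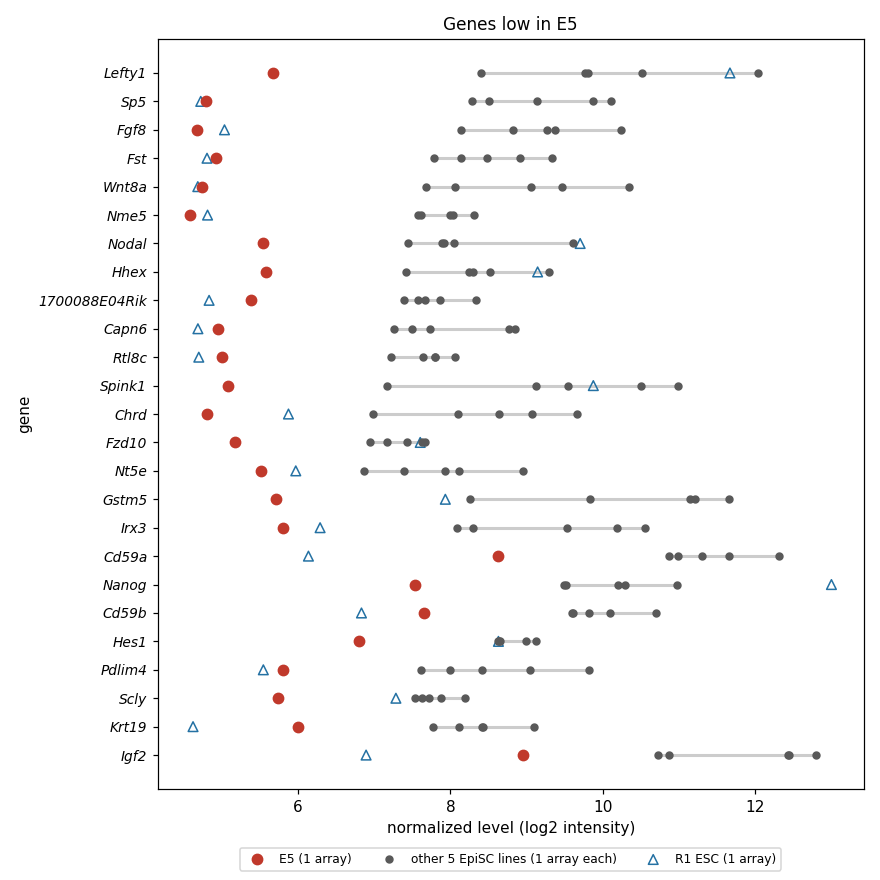
Each row is a gene and the horizontal axis its normalized level in log2 intensity, with E5 as a red disc, the other 5 EpiSC lines as grey points joined by a bar and R1 as an open triangle. In all 25 rows E5 lies left of the grey points. R1 lies near E5 for genes such as Sp5, Fgf8, Fst and Wnt8a, and among or right of the other lines for some, such as Lefty1, Nodal, Hhex and Nanog.

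Among ligands and receptors, Wnt8a, a Wnt ligand gene of the posterior epiblast, had 4.73 in E5, against 8.06 in OG2.1, 9.47 in OG2.2, 9.05 in E3, 7.68 in T9 and 10.34 in C1a1. Both of its other probes also put E5 below the 5 others. Nodal, which encodes the ligand that the streak requires, had 5.54 in E5, against 7.91 in OG2.1, 7.44 in OG2.2, 9.61 in E3, 7.89 in T9 and 8.04 in C1a1, with 9.70 in R1. Tdgf1, the gene of the Nodal coreceptor Cripto, had 4.57 in E5, against 6.23 in OG2.1, 6.69 in OG2.2, 9.40 in E3, 7.74 in T9 and 7.89 in C1a1. These 3 genes passed the rule of at least 1 below all 5 others, so the lack of overlap is given by that rule. Among the other lines, E3 was highest for Nodal and Tdgf1 and C1a1 highest for Wnt8a. Tdgf1 had another kept probe, which did not put E5 below all 5 others. The Wnt receptor gene Fzd10 had 5.17 in E5, against 6.95 to 7.66 in the others, and 1 of its 2 other probes also put E5 below all 5.

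Of the feedback inhibitors and antagonists, Lefty1, Fst, Chrd and Axin2 were below all 5 other lines by at least 1, and some others were not. Fst, which encodes the activin-binding protein follistatin, had 4.92 in E5, against 8.91 in OG2.1, 8.48 in OG2.2, 8.14 in E3, 7.79 in T9 and 9.33 in C1a1, and was at least 7.10-fold lower. Chrd, a BMP antagonist gene of the organizer, had 4.80 in E5, against 9.07 in OG2.1, 6.98 in OG2.2, 8.09 in E3, 8.63 in T9 and 9.66 in C1a1. Axin2, which remained above background in E5, had 6.14 there, against 8.09 in OG2.1, 8.50 in OG2.2, 8.09 in E3, 7.64 in T9 and 8.59 in C1a1, a difference of -2.04 (SE 0.38, limma adjusted p = 0.324). R1 had 6.11 for Axin2, the level of E5. The Nodal antagonist gene Lefty2, at 4.85 in E5, was not lowest there, against 4.53 in OG2.2 and 5.05 to 7.24 in the other 4. The secreted Wnt antagonist genes Sfrp1 and Sfrp2, at 8.84 and 7.88 in E5, lay within the other lines (8.09 to 9.84 and 7.27 to 8.71). Nog, Cer1, Dkk1 and Smad6 were each not above background in E5 and in at least 1 other line.

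Of the transcription factor genes of the streak, organizer and anterior endoderm, Gsc, Hhex and Nkx1-2 were among those below all others by at least 1. Gsc, an organizer gene, had 4.50 in E5, against 7.77 in OG2.1, 5.99 in OG2.2, 8.42 in E3, 8.12 in T9 and 10.14 in C1a1. Hhex, a gene of the anterior definitive endoderm, had 5.58 in E5, against 8.25 in OG2.1, 7.41 in OG2.2, 8.29 in E3, 8.51 in T9 and 9.30 in C1a1. Nkx1-2 had 4.43 in E5, against 5.56 to 7.02 in the others. OG2.2 was the lowest of the other lines for Gsc, Hhex and Chrd and the highest for Nkx1-2, so the other 5 lines did not share 1 profile. Eomes, a T-box gene needed for the streak, was the streak member still above background in E5, at 6.42, against 6.57 in OG2.2 and 7.68 to 8.05 in the other 4.

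Of 15 tested genes of the streak and mesoderm list, E5 was below all 5 others in 8 and above them in 0, against 17.0% and 19.7% of all genes. The median difference from the mean of the others was -1.41. In E5 1 member was above background, against 12 in OG2.1, 11 in OG2.2, 11 in E3, 10 in T9 and 13 in C1a1, and 6 in R1. The other 14 could not count as above, since that required the gene to be above background in E5. They entered the test through lines in which they were above background. The sign of their differences and the list's median therefore follow in part from that filter and are descriptions only. Some members could not be counted as below because not every other line had them: Lhx1, an organizer gene, had 4.57 in E5 against 7.73, 5.05, 6.95, 7.53 and 10.01 in OG2.1, OG2.2, E3, T9 and C1a1, and was not above background in OG2.2. Cdx2, a caudal homeobox gene, lay within the other lines, at 5.13 in E5, against 8.12 in OG2.1, 9.63 in OG2.2, 4.99 in E3, 4.44 in T9 and 5.54 in C1a1. Tbx6, Evx1, Mixl1 and, in the endoderm list, Foxa2 were likewise not above background in every other line. Of 18 definitive endoderm and node genes, 8 were below and 0 above all others, with a median of -2.40. E5 had 5 of these 18 above background, and the others could not count as above, so the same limits hold for this list. Shh, a signalling gene of the node and notochord, had 4.29 in E5, against 10.61 in OG2.1, 7.62 in OG2.2, 6.36 in E3, 5.27 in T9 and 9.10 in C1a1. Sox17 (4.69) and Gata6 (4.61), endoderm regulators, were not above background in E5, with 5.42 to 8.60 and 5.56 to 8.83 in the other lines.

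By pathway, 8 of 15 Nodal and activin genes were below all others and 0 above, against 17.0% and 19.7% of all genes. Their median was -0.45. Those past by at least 1 were the ligand, coreceptor and inhibitor genes Nodal, Tdgf1, Lefty1 and Fst, while the intracellular mediator Smad3 had 7.48 in E5, against 7.78 to 8.41, and the receptor gene Acvr2b 11.56, against 11.81 to 12.25. Of 17 Wnt genes 6 were below and 1 above, with a median of -1.10. Of 13 BMP genes 5 were below and 0 above, with a median of -1.20. E5 had 9 of the 15 Nodal and activin genes, 7 of the 17 Wnt genes and 3 of the 13 BMP genes above background. The others entered the test through lines in which they were above background. The medians and the counts above therefore follow in part from that filter and are descriptions only. Id1 and Id3, which BMP signals turn on, had 5.71 and 6.27 in E5, against 6.77 to 8.71 and 7.63 to 8.33 in the other lines. Bmp7, a ligand gene, had 4.55 in E5, against 7.23 in OG2.1, 6.33 in OG2.2, 6.31 in E3, 6.26 in T9 and 7.35 in C1a1. Bmp4 was not above background in E5 (5.08), against 5.98 to 7.54 in the others and 9.01 in R1.

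FGF genes went both ways, with 6 of 20 below all others, 7 above and a median of -0.19. The shares of all genes were 17.0% below and 19.7% above. Fgf4, the FGF ligand gene of the early epiblast, had 6.66 in E5, against 5.62 in OG2.1, 5.55 in OG2.2, 5.36 in E3, 5.43 in T9 and 4.54 in C1a1, and 6.53 in R1. Fgf4 was not above background in E3, T9 or C1a1. In OG2.1 and OG2.2 it lay close to the lowest level of any probe above background there (5.60 and 5.55). E5 thus had the highest Fgf4 and the lowest Fgf8 of the 6 lines, with the Fgf4 levels of the other lines at or under background. Spry4, a feedback inhibitor gene of the FGF pathway, was at 7.72 in E5 and 7.71 in E3, with 6.34 to 7.41 in the other 4.

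Pluripotency genes did not move as 1 group. Nanog had 7.53 in E5, against 9.49 in OG2.1, 10.20 in OG2.2, 10.29 in E3, 9.52 in T9 and 10.98 in C1a1, with 13.004 in R1, and was the lowest in E5 by a gap of 1.96. Of the 10 shared pluripotency genes, 2 (Nanog and Tdgf1) were below all others and 3 above, Pou5f1 among them, with a median of 0.13. Over all genes 17.0% were below and 19.7% above. In the naive list 4 of 12 were below and 1 above, with a median of -0.54. Gbx2, a target of LIF signalling in ESCs, had 5.89 in E5, against 6.62 in E3, 7.14 in T9, 9.20 in C1a1, 10.65 in OG2.1 and 11.21 in OG2.2, and Klf2 had 5.49 in E5, against 6.20 to 9.10. Of 14 postimplantation and anterior epiblast genes 2 were below and 6 above, with a median of 0.12. Pim2, a kinase gene, had 10.55 in E5, against 8.41 to 9.90, and Zic2, an anterior neural gene, 9.48, against 8.27 to 9.30. Lbh went the other way, at 8.35 in E5 against 9.43 to 10.32.

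Among genes above background in all 6 lines, the widest gaps below the other lines were in Gstm5, a glutathione transferase gene, and Irx3, a homeobox gene. Gstm5 had 5.71 in E5, against 11.21 in OG2.1, 11.65 in OG2.2, 8.26 in E3, 9.83 in T9 and 11.15 in C1a1. Irx3 had 5.80 in E5, against 10.19 in OG2.1, 9.52 in OG2.2, 8.08 in E3, 8.29 in T9 and 10.56 in C1a1. In both genes E3 and T9 were the nearest lines and R1 (7.93 and 6.29) lay closer to E5 than to OG2.1. Hes1, a Notch effector gene, was at 6.80 in E5, against 8.62 to 9.12 in the others, and the narrow spread of those 5 (8.80 ± 0.23, SD, n = 5) made its difference of -2.01 (SE 0.29, limma adjusted p = 0.223) several times their SD. Cd59a and Cd59b, neighbouring copies of a complement inhibitor gene whose probes may share signal, were at 8.63 and 7.65 in E5, against 10.88 to 12.31 and 9.60 to 10.70. The imprinted growth factor gene Igf2 was at 8.95 in E5, against 12.44 in OG2.1, 12.81 in OG2.2, 10.72 in E3, 10.87 in T9 and 12.44 in C1a1. Krt19, a keratin gene, Pdlim4 and Scly completed, with Nanog, the 10 widest gaps, at 5.99, 5.80 and 5.74 in E5, against at least 7.53 in each other line. Gstm5, Irx3, Pdlim4 and Scly lay close to 5.70, the lowest level of any probe above background in E5. Their E5 levels are therefore little more than bounds.

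Of the 15 genes absent from E5 at the highest level elsewhere, 6 belonged to none of the 26 lists. Nme5, a gene of motile cilia, had 4.58 in E5, against 7.58 in OG2.1, 7.61 in OG2.2, 7.99 in E3, 8.03 in T9 and 8.31 in C1a1, a difference of -3.33 (SE 0.34, limma adjusted p = 0.164, the smallest over all genes). The X-linked Capn6 and Rtl8c had 4.95 and 4.99 in E5, against 7.26 to 8.84 and 7.22 to 8.06. Spink1, a protease inhibitor gene, had 5.08, against 7.16 to 10.99, with 9.88 in R1. 1700088E04Rik had 5.37, against 7.39 to 8.33. The surface nucleotidase gene Nt5e, the last of the 15, had 5.51, against 6.86 to 8.95, and its other probe did not put E5 below all 5.

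Most of the 192 absent genes (2.16% of genes tested) were dim: their median level in the other lines was 6.46, against 8.65 over the 6838 genes above background in all 5 others, and in 12 of them the lowest of the 5 others reached 7. R1 had 109 of the 192 above background (56.8%), against 92.6% of those 6838 genes. By the same rule on the representative probe, 198 genes were absent from E5, against 102 from OG2.1, 55 from OG2.2, 74 from E3, 29 from T9 and 42 from C1a1. The part of the lower detection on the E5 array in this count was not tested. Of the 97 genes below by at least 1, 54 were absent from E5 and 42 were above background on the representative probe there, and the median difference was -2.15. R1 was also below all 5 others in 68 of the 97, within them in 17 and above them in 12. Over all genes tested, with no background rule, R1 was below all 5 in 34.0% and above them in 25.7%. At the edge of the rule, Cd81 lay 1.00 below its nearest line (11.70 in E5, 12.70 in T9) and Ndrg1 0.99 below (6.54 in E5, 7.53 in OG2.1). The nearest line was E3 for 28 of the 97, T9 for 26, OG2.2 for 22, OG2.1 for 12 and C1a1 for 9.

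Genes present in E5 alone were mostly dim, which the rule favours, since they had to be below background in all 5 other lines. The 64 genes above background in E5 alone (0.721%) had a median level of 5.84 in E5, 1 reached 7, and 9 were above background in R1. The other lines had 88 to 221 such genes of their own by the representative probe. H2-Q5, a class I histocompatibility gene, was the brightest, at 7.46 in E5, against 4.53 in OG2.1, 4.75 in OG2.2, 4.71 in E3, 5.09 in T9 and 4.39 in C1a1, and was at least 3.82-fold higher. Cntfr, a cytokine receptor gene, followed at 6.61, Doc2a at 6.54, Pof1b at 6.30 and Nrgn at 6.29, with at most 5.51 in any other line. Nudt6, Slc45a1, Foxs1, Zfp788, Cdsn, Slc25a42, Hoxc4, Tmem135, Rasgrp2 and Mid1 had 5.99 to 6.26 in E5, within 1 unit of the lowest level, 5.70, of any probe above background there.

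**Figure D3:**
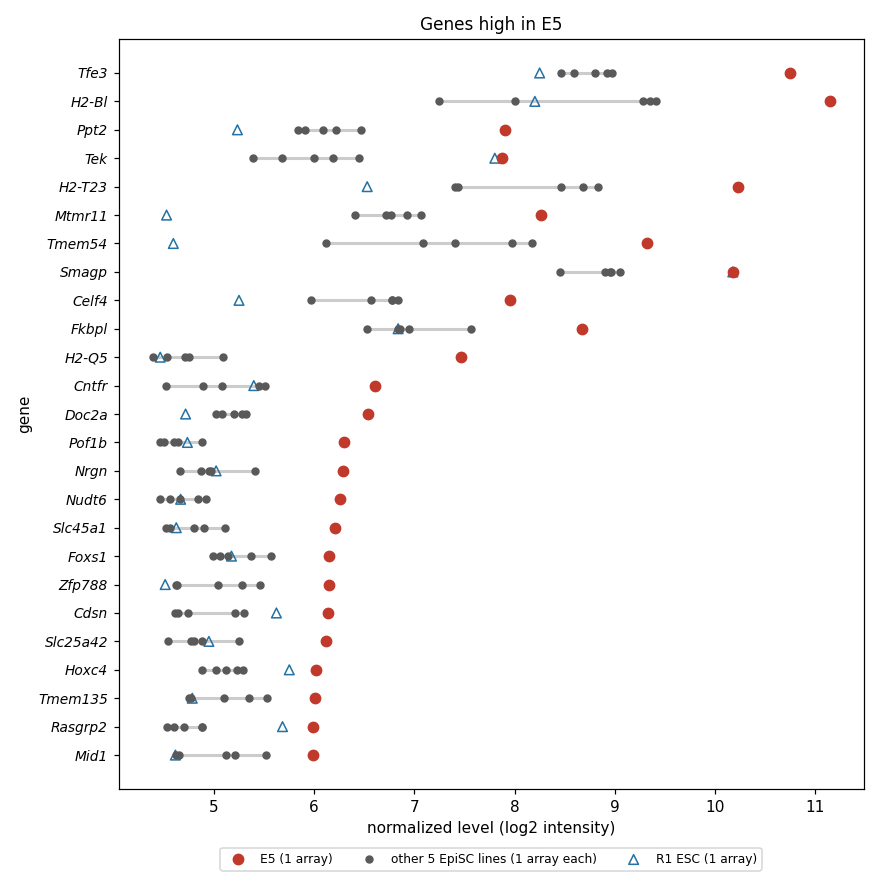
Rows are genes and the horizontal axis is the normalized level in log2 intensity, with E5 as a red disc, the other 5 EpiSC lines as grey points joined by a bar and R1 as an open triangle. The upper 10 genes were above background in all 6 lines and reach 11.14 in E5, whereas the lower 15 were above background in E5 alone and, apart from H2-Q5, lie between 5.99 and 6.61.

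Genes high in E5 and present in all 6 lines were led by Tfe3, the gene of a transcription factor of lysosomal and metabolic control, at 10.75 in E5, against 8.98 in OG2.1, 8.60 in OG2.2, 8.80 in E3, 8.93 in T9 and 8.46 in C1a1. The difference was 1.999 (SE 0.28, limma adjusted p = 0.223), and R1 had 8.25. H2-Bl had 11.14 in E5, against 7.25 in OG2.1, 9.36 in OG2.2, 9.28 in E3, 9.41 in T9 and 8.01 in C1a1, and H2-T23, another class I gene, had 10.23, against 7.41 to 8.83. Tek, the angiopoietin receptor gene, had 7.88 in E5 and 7.80 in R1, against 5.39 to 6.45 in the other EpiSC lines. Ppt2 and Fkbpl, at 7.91 and 8.67, against 5.84 to 6.47 and 6.53 to 7.56, were each above the others on another probe too. Mtmr11, Tmem54, Smagp and Celf4 were at 8.26, 9.32, 10.18 and 7.96, against at most 7.06, 8.17, 9.05 and 6.83. At the edge of the rule, H2-Eb2 lay 1.00 above its nearest line (6.70 in E5, 5.70 in OG2.2) and Tnfsf11 0.99 above (7.50 in E5, 6.51 in the nearest).

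A large share of the high genes were neighbours on chromosome 17. Of the 47 genes, 13 lay on that chromosome, which held 450 of the 8871 genes tested. Of these 13, 11 lay in 1 stretch around the major histocompatibility complex, which also holds many genes unrelated to immunity. The stretch was chosen after the values were seen, as the run of windows of 25 consecutive tested genes with a median E5 difference of at least 0.5, and it held 89 genes from H2-K1 to Cyp39a1. E5 was above all 5 others in 49 of the 89 (55.1%) and below them in 3 (3.37%), with a median difference of 0.86. In the other 361 genes of chromosome 17 these shares were 16.9% and 19.4%, with a median of -0.03. Over all genes they were 19.7% and 17.0%. The 71 genes of the stretch with no H2 name gave the same median as the whole stretch, 0.86, and the 18 H2 genes 0.82. Over the 59 genes above background in all 6 lines it was 0.92.

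The highest differences of the stretch were those of H2-Ab1, H2-Q5, D17H6S56E-5 and H2-Bl, and the lowest that of Ltb, named here after their values were seen. H2-Ab1, a class II chain gene, had 10.26 in E5, against 4.84 in OG2.1, 5.69 in OG2.2, 6.78 in E3, 6.26 in T9 and 6.63 in C1a1, the largest difference of any high gene (4.22, SE 0.68, limma adjusted p = 0.241). H2-K1 had 7.91 in E5, against 5.51 in OG2.1, 5.29 in OG2.2, 5.92 in E3, 6.69 in T9 and 5.62 in C1a1. D17H6S56E-5, which has no H2 name, had 8.31 in E5, against 5.91 in OG2.1, 4.80 in OG2.2, 6.07 in E3, 5.86 in T9 and 5.83 in C1a1, a difference of 2.62. Among further genes with no H2 name, the difference was 1.95 for Prrc2a, 1.77 for Ehmt2, a histone methyltransferase gene, and 1.57 for the mitochondrial ribosome gene Mrps18b. Pou5f1 lies in this stretch, with a difference of 0.92. The antigen processing genes Tap1 (0.03), Tap2 (-0.07) and Psmb8 (-0.43) did not stand out, Ltb was at 4.92 in E5 against 6.53 to 8.48, and H2-D1 was not above background in E5. H2-M2 and H2-M3 had differences of -1.39 and -0.40, and neither was above background in E5. H2 genes differ between strains, which are not given, and some of them are near-identical. A probe's match to each line's allele therefore cannot be told apart from its level.

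**Figure D4:**
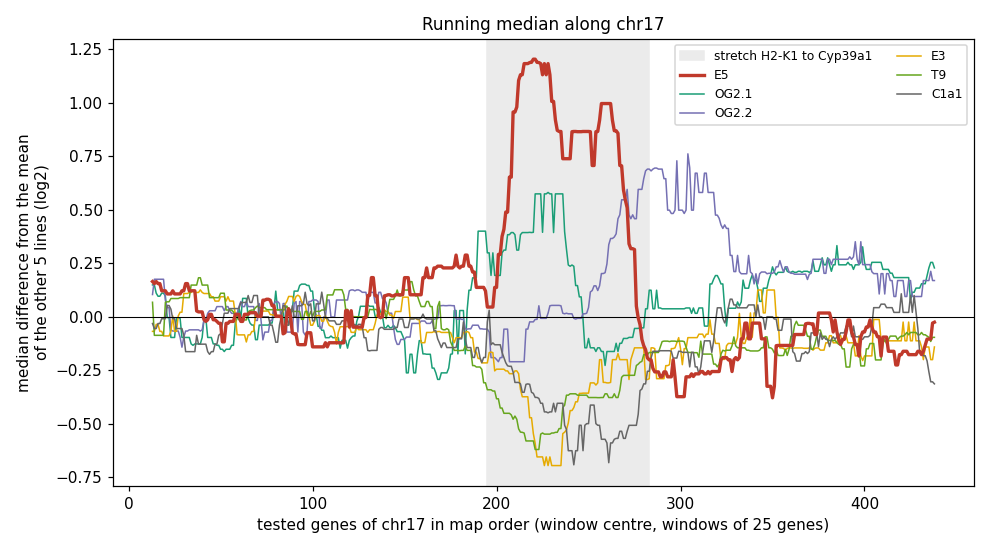
The horizontal axis is the order of the 450 tested genes of chromosome 17 and the vertical axis the median difference, in log2 units, of each line from the mean of the other 5 over windows of 25 genes. E5 (red) reaches 1.20 inside the shaded stretch from H2-K1 to Cyp39a1 and lies near or below 0 after it, where OG2.2 reaches 0.76.

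The stretch was not even in the other lines. Its median difference was 0.16 in OG2.1, 0.12 in OG2.2, -0.31 in E3, -0.41 in T9 and -0.39 in C1a1. Each was taken against the mean of the remaining lines, E5 among them, so the high E5 levels lower these values. The highest window of OG2.1 in the genome (0.58) and the lowest of C1a1 (-0.69) lay inside the stretch. The E5 peak window, Tap2 to Vars, was the highest of all 8385 windows in E5, with a median of 1.20, and the lowest window of E5 was on chromosome 3 (-0.66). Outside chromosome 17 the highest E5 window (0.97) held replication-dependent histone genes on chromosome 13, where T9 was higher still (1.43). The E5 minus R1 median over the stretch was 1.30, and that of the other lines' mean minus R1 was 0.45. In E5 the X chromosome had the highest share of genes above all 5 others of any chromosome, 30.5% of 298, with a median difference of 0.05. Chromosomes 1 (28.8%) and 14 (25.5%) came next, with higher medians of 0.10 and 0.15.

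Sex-linked transcripts set E5 apart from each other line. Xist, the RNA of the inactive X, was not above background in E5 (4.80) or E3 (4.66), against 8.33 to 9.36 in the other 4 lines. The Y-linked Eif2s3y and Kdm5d had 4.95 and 4.52 in E5, not above background, against 9.96 and 7.00 in E3. E5 was therefore the line in which none of Xist, Eif2s3y and Kdm5d was above background. The Uty probe did not separate the lines, at 5.69 in E5, against 5.37 to 5.95 in the other 5, and was above background in OG2.2, E3 and C1a1. Of the 8 sex chromosome genes tested, 3 were above all others in E5, against 19.7% of all genes, among them Eif2s3x at 12.16, against 11.19 to 11.75.

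Markers of other cell types did not run together, and their counts stand beside 17.0% below and 19.7% above over all genes. Of 13 fibroblast and feeder genes, 3 were below and 4 above all others, and the largest difference was that of Dcn, at 9.30 in E5 and 8.99 in OG2.1, against 4.69 to 6.82 in the other 4. Fbln2 had 5.18 in E5, against 6.48 to 8.51. Of 9 trophoblast genes 5 were below and 0 above, the keratins Krt8 (10.56 in E5, against 10.90 to 12.67) and Krt18 (8.95, against 9.26 to 10.35) among them, and of 12 extraembryonic endoderm genes 4 were below and 0 above. Of 16 epithelial genes 4 were below and 7 above, and Cldn4, a claudin gene, had 10.77 in E5, against 8.35 to 10.24. Of 12 mesenchymal regulators 4 were below and 0 above, with Snai1 at 5.46 in E5, against 6.23 to 7.17. E5 had 3 of these 12 above background, and the others could not count as above. The part of these cell types in the other differences was not tested.

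**Figure D5:**
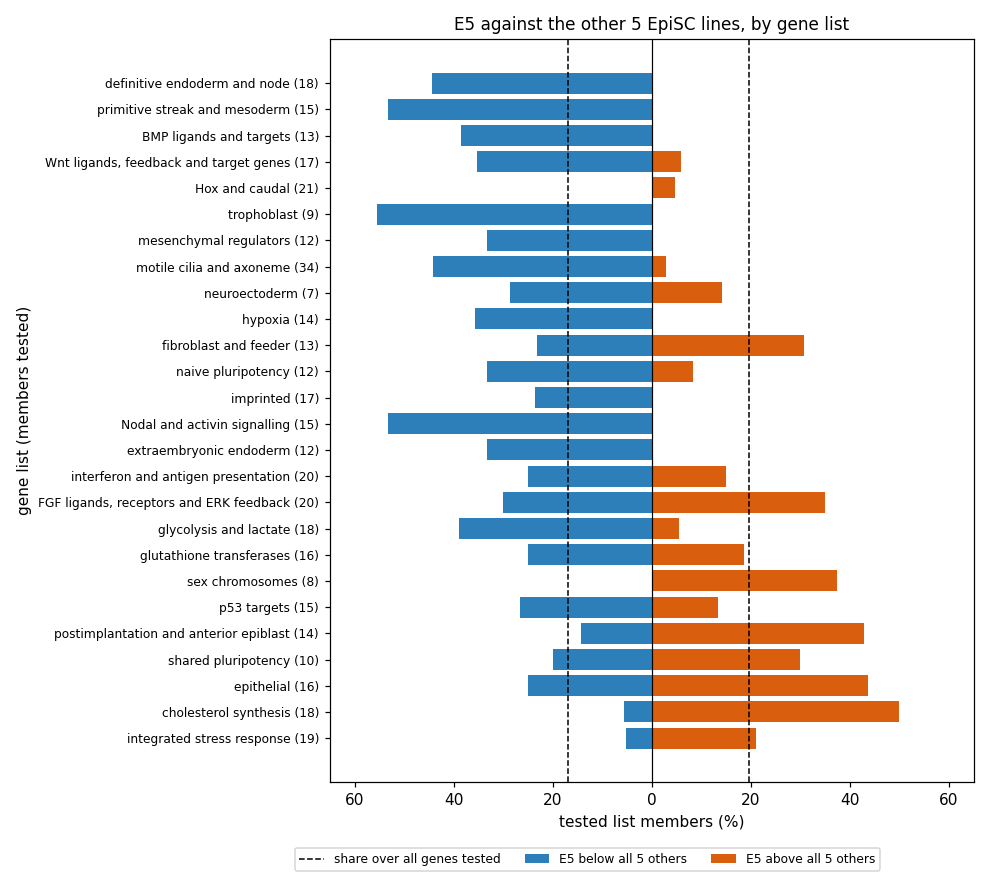
Bars give the percentage of a list's tested members (their number in brackets) in which E5 lay below all 5 others (blue, to the left) or above them (orange, to the right), with lists of at least 7 tested members ordered by their median difference, some genes in several lists, and the cilia list added after the low genes had been seen. Dashed lines mark the shares over all 8871 genes, 17.0% below and 19.7% above, and the streak, endoderm and Nodal lists at the top and middle lie beyond the left line.

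Among the metabolic and stress lists, cholesterol synthesis had more members above the other lines than the 19.7% of all genes. Of 18 cholesterol synthesis genes E5 was above all others in 9 and below in 1, with a median of 0.39. Mvd had 10.62 in E5, against 9.31 to 9.90, and Fdps 13.47, against 12.62 to 12.73. Insig1, a sterol feedback gene, did not share this, at 7.29 in E5 against 8.94 to 9.58 in 4 lines and 4.48 in C1a1. Of 19 integrated stress response genes 4 were above, about the share over all genes, and 1 below, with a median of 0.67, and Chac1 and Trib3, at 11.47 and 7.33 in E5, were higher in T9 (12.28 and 7.58). Of 18 glycolysis genes 7 were below and 1 above (median -0.13), and of 14 hypoxia genes 5 were below and 0 above (median -0.58). The share below over all genes was 17.0%. The glucose transporter gene Slc2a1 was at 12.53 in E5, against 12.54 to 13.51.

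The remaining lists are given by their counts, to be read beside 17.0% below and 19.7% above over all genes tested. Of 20 interferon and antigen genes 5 were below and 3 above, with Gbp2 at 4.73 in E5, against 6.71 to 10.19. Of 17 imprinted genes 4 were below and 0 above, of 16 glutathione transferases 4 and 3, of 15 p53 targets 4 and 2, of 7 neuroectoderm genes 2 and 1 and of 3 germ line genes 1 and 1. Of 21 Hox and caudal genes E5 had 1 above background, where OG2.1 had 8, OG2.2 had 20, E3 and T9 had 0 and C1a1 had 2. None of them could count as below all 5 others, since that required all 5 to be above background, and 1, Hoxc4, was above.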

How the data were processed

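The deposited signals are linear intensity values per probe, with no background subtracted and no normalization between arrays. BeadStudio 3.2 is named in the submitters' processing notes, which also name RMA and lumi with no order or settings. Beside each signal the authors gave a detection p-value, taken against the negative control beads of its array, per the file headers. The authors also deposited log2 values, which had equal quantiles on all 7 arrays and served as an alternative. The 7 arrays held 1 line each, and their number limits the precision.

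Intensities were normalized with neqc (limma 3.58.1 in R 4.3.3, offset 16) over all 7 arrays. A probe was kept if any EpiSC array gave it a detection p under 0.01. The probe table named 1 gene for 23978 of 25697 probes and none for 1719, and 12145 kept probes with a gene gave 8871 genes, 2339 with several kept probes. Below all others meant that E5 was under the lowest of the 5 and all 5 were above background, and above all others that E5 was over the highest and above background. Limma compared E5 with the mean of the other 5 with Benjamini-Hochberg adjustment, 2-sided. It assumes that the lone E5 array varies like the other lines, and it was tested on simulated data. P-values measure only the spread between lines, which may be technical.

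The members and the 26 gene lists were chosen with earlier results of these data known. Named genes were the 15 absent from E5 and 15 present in E5 alone at the highest level, the 10 with the widest gap each way among genes above background in all 6 lines, Fgf8, Sp5, Lefty1, Xist and Y-linked genes, and from each list those past by at least 1 and up to 4 others with the largest difference. Genes named at the edge of the rule and in the chromosome 17 stretch, and Sfrp1, Sfrp2, Cer1, Dkk1, Tbx6, Evx1, Mixl1 and Foxa2, fall outside it. The order of neighbouring genes and the promoters came from RefSeq tables of GRCm38.p6. H2-Q8 was placed outside the stretch by that table. Of 36 members past by at least 1 with several kept probes, 25 had another probe past all 5 the same way and 1 the other way.

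Alternatives were median scaling, no background correction, the deposited log2 values, the EpiSC arrays normalized alone, other detection filters, other uses of the probes, a trended and robust variance, other gaps and the removal of lines. They were also applied to the chromosome 17 stretch, a choice made after seeing the data.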

Additional observations from a re-analysis of the deposited data

Results flagged for a closer look

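In 4 of 55 named genes past all 5 other lines by at least 1, 1 of the other 5 lines stood far from the remaining 4 (gap over range above 0.71). Chance flags about 1 in 20 groups. Nodal was at 5.54 in E5, and E3, at 9.61, stood above the next of the other lines at 8.04. Nkx1-2 was at 4.43 in E5, and OG2.2, at 7.02, stood above the next at 5.96. Fgf4 was at 6.66 in E5, and C1a1, at 4.54, stood below the next at 5.36, both not above background. Smagp was at 10.18 in E5, and E3, at 8.45, stood below the next at 8.90. In all 4 the line that stood apart lay on the far side from E5, so the gap to the nearest line did not rest on it.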

How the results depend on the processing

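The count of genes below all 5 others by at least 1 (97) was 19 without background correction, 156 with the deposited log2 values, 163 without OG2.1 and OG2.2, 305 with a gap of at least 0.5 and 15 with a gap of at least 2. The count above (47) was 10, 94, 119, 266 and 4 under the same settings. It was 52 to 81 when 1 of the other lines was left out, 81 without OG2.1. The 192 absent genes were 303 without OG2.1 and OG2.2. The 64 genes present in E5 alone were 122 at a detection p under 0.05, 107 probes when every probe was counted, and 109 genes without OG2.1 and OG2.2. With fewer lines to lie beyond, these counts can only be equal or higher. Limma called 0 genes under every setting run, and 8 to 9 streak genes were below all others, or 10 probes when every probe was counted. No paired analysis was possible because E5 has 1 array, so the groups share at most 1 replicate number, which forms no pairs. Of 2057 differences of 159 named genes under the alternatives, 134 moved by more than the SD of the other 5 lines. In 8 of the 2057, of 6 genes (Cdkn1c, Cdx2, Dppa4, Eif2s3y, Hes5 and Uty), the sign was the opposite. None of the 6 lay past all 5 other lines. Cdkn1c was at -0.84, and at 0.76 without OG2.1 and OG2.2. The median difference of the chromosome 17 stretch was 0.86 and ran from 0.49 without background correction to 1.06 without OG2.1 and OG2.2. For dim genes an added offset understates the differences, and absence from E5 is a bound set by the background of its array.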

Other observations

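Some low genes of E5 belong to motile cilia. A list of 69 axoneme and cilia genes was written after the low genes had been seen and includes some of them, so it describes these data and tests nothing. Of the 34 tested, E5 was below all 5 others in 15, by at least 1 in 7, and above in 1, and 9 were absent from E5. E5 had 18 of the 34 above background, and the others could not count as above. Over all genes 17.0% were below and 19.7% above. Without the 7, E5 was below all others in 8 of 27 and above in 1, with a median of -0.32. In 5 of the 34 E5 was higher than the mean of the others, among them Efhc2 (0.73) and Foxj1 (0.006). Beside Nme5, Enkur had 4.39 in E5, against 5.80 to 7.29 in the other lines, Tppp3 4.55, against 6.12 to 7.47, and Ccdc114, a gene of the dynein docking complex, 4.93, against 6.30 to 7.07. Pifo, Cetn4 and Ift172 were at 6.50, 4.77 and 7.32 in E5, against at least 7.69, 5.83 and 8.37 in each other line.

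Several developmental genes outside the lists were also low, and they too were chosen after their values were seen. Sox21, a neural SoxB gene, had 4.99 in E5, against 11.83 in OG2.1, 9.71 in OG2.2, 6.82 in E3, 7.81 in T9 and 9.63 in C1a1, with 9.76 in R1. The forkhead gene Foxd4 had 4.61 in E5, against 6.44 to 10.33, the apelin receptor gene Aplnr 4.78, against 5.85 to 9.03, and Rspo3, a secreted enhancer of Wnt signals, 4.76, against 5.95 to 8.34. Wls, whose product carries Wnt proteins to the cell surface, had 5.79 in E5, against 7.49 to 9.02. Igfbp5 had 6.82 in E5, against 12.98 in OG2.1, 11.88 in OG2.2, 8.15 in E3, 9.35 in T9 and 11.18 in C1a1. On the high side, the glutamate transporter gene Slc17a6 had 9.29 in E5, against 8.17 in OG2.1 and 4.91 to 5.83 in the other 4, and the crystallin gene Cryba4 had 8.62, against 4.80 to 6.32.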
